A study of Mus musculus with 36 samples.

Results

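The cytosolic ribosomal proteins are the proteins that, with ribosomal RNA, make up the large (Rpl) and small (Rps) subunits of the ribosome outside mitochondria. Members were the genes whose name on the array has the form Rpl or Rps with a number and at most 1 of the letters a, x, y or l behind it, plus Rpsa, Rplp0, Rplp1 and Rplp2. This gave 81 of the 37074 genes named on the array, with 176 of its 56605 probes, and each gene was represented by its brightest probe. Of these, 78 entered the tests among 24101 genes, 46 of them of the large and 32 of the small subunit. Rpl3l, Rpl10l and Rpl39l, known mainly from muscle and testis, lay too close to background in every group.

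Livers of 36 male C57Bl/6J mice were measured on 1 single-colour Agilent array each, in 6 groups of 6. AAKO mice lack the lipase ATGL (Pnpla2) in white adipose tissue, and CTRL mice are their controls. What drives the deletion was not given in the sources used here. Mice of each genotype had food at will (CTRL fed, AAKO fed), were fasted for 24 h (CTRL fasted, AAKO fasted), or were fed and given 3 mg/kg of the beta 3 adrenergic agonist CL316243 by gavage at Zeitgeber time 10 (CTRL CL316243, AAKO CL316243). All had the same standard diet, and livers were taken at Zeitgeber time 16; their age was not given in the sources used here. The fed groups carry the label of experiment 2 and the other 4 groups that of experiment 1, so fasting or CL316243 against feeding cannot be told apart from the experiment. A gavage is stated for the CL316243 groups alone, so the drug and the gavage with its vehicle cannot be told apart either. The labels tell samples of a group apart by number only, so the p-values measure the spread between these livers.

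Ribosomal protein transcripts are among the most abundant messages of any cell, and most of their products are needed in equal numbers. Many begin with a run of pyrimidines at the very start of the message, the 5′ terminal oligopyrimidine tract, through which mTORC1 adjusts their translation when nutrients change. The liver loses and regains a share of its ribosomes with fasting and refeeding, and much of this control is known to act on translation and ribosome breakdown rather than on the amount of message.

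Promoter windows are shown for a few members because the terminal tract is the sequence feature that this family is known for. Each window runs from 10 bases before to 20 bases from the transcript start of RefSeq (GRCm38.p6), 5′ to 3′ on the gene's strand, and capitals mark its longest run of C and T.
Rpl27a: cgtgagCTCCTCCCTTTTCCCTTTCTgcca
Rpl35: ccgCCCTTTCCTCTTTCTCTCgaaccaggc
Rpl14: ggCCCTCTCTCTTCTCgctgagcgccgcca
Rpl35a: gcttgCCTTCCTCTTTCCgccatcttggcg
Rps18: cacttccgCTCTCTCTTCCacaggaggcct
Rps6: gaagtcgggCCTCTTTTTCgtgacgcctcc
Rplp2: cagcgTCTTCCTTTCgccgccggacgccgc
Rps27: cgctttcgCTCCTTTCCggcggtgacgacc
Rpl12: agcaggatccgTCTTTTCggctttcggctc
Rps27l: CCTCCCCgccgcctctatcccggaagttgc
The table held 72 promoters for 60 of the 81 members. A run of at least 8 bases of C or T, searched on the transcript's strand, lay in 31.9% of the members' windows and in 11.2% of all 32851 promoters of the table. The longest run covered the start and was at least 6 bases long in 26.4% of the members' windows, in 6.72% of all promoters and in 2.78% of the 72 promoters of mitochondrial ribosomal proteins. In Rps27l the longest run of the window shown ended before the start, and in Rpl12 it began after it. The windows shown all have runs above the members' median of 6 bases and do not stand for the family. Rpl26 and Rpl5 had runs of 3 and Rps4x of 4, and other windows of Rpl35a and Rps27l had shorter runs than those shown. A run is a match of letters, and its use as a tract in liver was not measured.

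Probe sequences are shown for some of the members whose levels set them apart below. For Rpl27a, Rps27l and Rps27 only the second probe is shown, while their levels come from the brightest. Probes of this family can share sequence with processed copies elsewhere in the genome, and values of near-identical genes cannot be separated here.
Rpl12, brightest probe: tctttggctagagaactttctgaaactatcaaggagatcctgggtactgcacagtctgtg
Rpl12, second probe: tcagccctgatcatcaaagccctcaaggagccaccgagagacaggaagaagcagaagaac
Rpl27a, second probe: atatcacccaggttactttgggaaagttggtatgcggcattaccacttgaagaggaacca
Rps27l, second probe: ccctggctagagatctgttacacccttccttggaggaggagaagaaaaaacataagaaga
Rpl35a, brightest probe: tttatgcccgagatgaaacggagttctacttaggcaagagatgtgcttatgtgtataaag
Rps27, second probe: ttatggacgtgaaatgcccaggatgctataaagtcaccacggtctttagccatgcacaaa
In mm9, the build of the array's own annotation, the Rpl12 probes lie at chr2:32819082-32819298 and chr2:32818526-32818585. The first covers 217 bases of genome with 60 bases of probe, as a probe across a splice junction does. The Rpl27a probe lies at chr7:116663505-116664038, that of Rps27l at chr9:66793986-66794695 and that of Rpl35a at chr16:33057562-33057621. The annotation places the Rps27 probe at chr9:114891672-114891731 and the probes of Rps29 on chromosome 2, which are not the chromosomes of these genes. Values of Rps27 and Rps29 are therefore uncertain between the gene and a near-identical copy.

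Levels are given as log2 of the array's processed signal minus the 75th percentile of that array, so 0 is the level of that percentile. The members were bright. Their median brightness stood at percentile 97.66 of the tested genes, and 73 of 78 were among the brightest 5%. Probes differ in how strongly they hybridise, so a bright probe is not by itself a more abundant message.

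The 6 group means of a member spanned a median of 0.25 on the log2 scale, or 1.19-fold, against 0.74, or 1.67-fold, for all tested genes. The span was under 0.5 in 74 of 78 members (94.9%) and in 30.1% of all tested genes. The SD between livers of 1 group had a median of 0.085 for the members and 0.24 for all genes. In Rpl37, a member with a dim probe, it was 0.41. Members were not compared with genes of like brightness, so a small spread is not shown to be particular to this family. The standard error of a member's difference between groups had a median of 0.06. The highest group mean was that of AAKO fed in 56 members, and the lowest that of AAKO fasted in 32, CTRL CL316243 in 28 and CTRL fasted in 17.

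**Figure D1:**
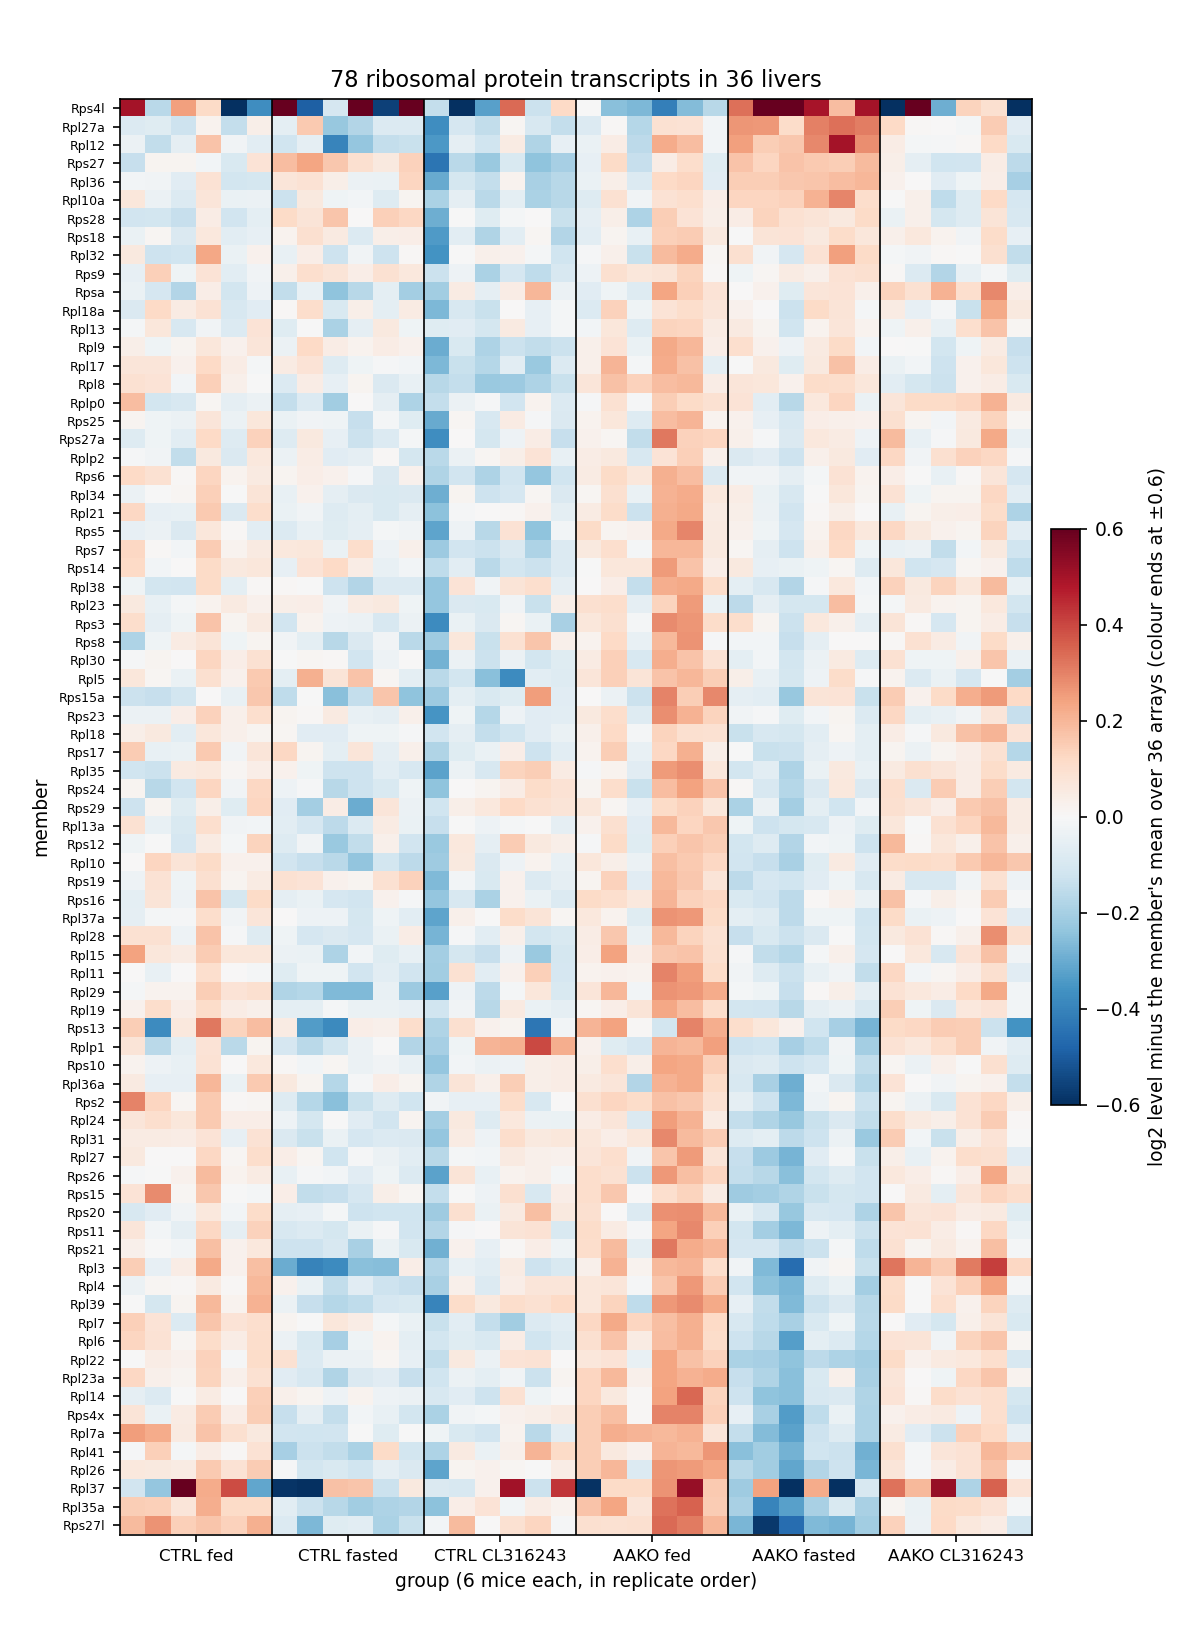
Log2 level of each of the 78 tested members (rows) in each of the 36 livers (columns, 6 per group), shown as the difference from that member's mean over all arrays; colours end at ±0.6. Most rows are pale. The warmest columns are AAKO fed replicates 4 and 5 (each with a mean over members of 6.81), while AAKO fed replicate 3 (6.58) is not warm. Rpl12, Rpl27a and Rps4l stand out as warm in AAKO fasted, where Rps27l, Rpl35a and Rpl26 are cold.

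Averaged over the 78 members, the log2 level was 6.64 ± 0.05 in CTRL fed, 6.56 ± 0.02 in CTRL fasted, 6.55 ± 0.08 in CTRL CL316243, 6.71 ± 0.09 in AAKO fed, 6.56 ± 0.05 in AAKO fasted and 6.65 ± 0.06 in AAKO CL316243 (SD, n = 6 each). All 6 CTRL fasted livers (6.53 to 6.58) lay below all 6 CTRL fed livers (6.60 to 6.73), while AAKO fed (6.58 to 6.81) and AAKO fasted (6.47 to 6.62) overlapped. Whether these ranges stay apart or overlap under other scalings was not tested. The lowest averages of all were those of CTRL CL316243 replicate 1 (6.39) and AAKO fasted replicate 3 (6.47), and the highest those of AAKO fed replicates 5 (6.81) and 4 (6.81). Counts of called members that rest on these 4 livers are given without them below. In whole liver, fewer cells of a type and less RNA per cell cannot be told apart.

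On each array 33126 to 37200 probes were well above background, no member's brightest probe was saturated, and no replicate pair correlated above 0.99479. All 8 hepatocyte markers on a list for that purpose were bright, with group means from 5.95 to 10.18. With fasting 2 of them rose and 1 fell in CTRL, and 2 rose and 3 fell in AAKO. Among fasted mice 2 were higher and 4 lower in AAKO. Fasted against CL316243, 2 were higher and 2 lower in CTRL, and 2 higher and 4 lower in AAKO. Their part in the differences below was not tested. Pnpla2 itself checks nothing here, since the deletion is in white adipose tissue: its liver level differed by -0.45 between AAKO and CTRL when fed (limma, adjusted p = 0.644) and by 1.28 when fasted (8.59e-07).

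In fed mice no ribosomal protein transcript passed the test between genotypes, by limma with Benjamini-Hochberg adjustment over all 24101 genes, as in every test below. Called means an adjusted p under 0.05. The members' median difference, AAKO minus CTRL, was 0.07 against 0.00 for all genes, 76 of 78 were above 0, and 5 had an unadjusted p under 0.05. With quantile normalization the median was 0.03 with 16 members below 0, and in the authors' values it was 0.04 with 7 below 0. The call rate over all genes was 0.0747% (0.0373% higher and 0.0373% lower), so the members' count of 0 was near the background. None of the 78 had groups that did not overlap, where 0.668% of all genes had. The lowest unadjusted p was that of Rpl14 (0.0152), whose difference was 0.14 ± 0.06 (SE).

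Fasting was accompanied by lower levels of 17 members in CTRL and 46 in AAKO, by small amounts. In CTRL mice 19 of 78 members were called, 2 higher and 17 lower, with a median of -0.07 against -0.03 for all genes. Over all genes 43.2% were called, 20.8% higher and 22.4% lower, while 21.8% of the members fell and 2.56% rose. The groups of 13 members did not overlap, all lower when fasted, where 22.7% of all genes had no overlap. In AAKO mice 52 were called, 6 higher and 46 lower, with a median of -0.16 against -0.08 for all genes. The background there was 63.3%, of which 27.9% higher and 35.4% lower, while 59% of the members fell and 66.7% were called in all. Without AAKO fed replicate 4, AAKO fed replicate 5 or AAKO fasted replicate 3, the AAKO count was 46, 45 or 46. Of the 19 members called in CTRL, 18 passed the test with the same sign in AAKO as well, which is 94.7% of the CTRL calls and 34.6% of the AAKO calls. Of the large-subunit members 29 of 46 fell in AAKO and of the small-subunit members 17 of 32, with medians of -0.19 and -0.15; the difference between the subunits was not tested. With fasting in CTRL, 2 of 9 Kupffer cell markers fell, the sum of their levels on the linear scale running from 33.0 to 75.94 when fed and from 21.96 to 75.74 when fasted. Of 6 cholangiocyte markers 3 fell there (5.78 to 12.79 and 3.83 to 6.09), and of 4 adipocyte markers 2 rose and 1 fell (1.37 to 1.90 and 17.58 to 145.2). With fasting in AAKO, 4 of 6 neutrophil markers rose, their sum running from 1.21 to 32.51 in AAKO fed and from 6.50 to 86.56 in AAKO fasted. All 3 tested erythroid markers fell there (337.8 to 921.2 when fed, 187.2 to 308 when fasted), and of 7 stellate cell markers 3 rose and 1 fell (82.38 to 104.5 and 133.7 to 171.5). Of 9 Kupffer cell markers 3 fell (52.51 to 87.59 and 14.5 to 73.87), as did 3 of 6 cholangiocyte and 3 of 5 T and NK cell markers, while of 7 endothelial markers 3 rose and 2 fell, and 2 of 4 adipocyte and 2 of 4 B cell markers rose. The part of these cells in the members' differences was not tested.

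The size of this shift, and on which side of the background it lay, depended on how arrays were scaled. With quantile normalization the AAKO median was -0.04 with 13 members higher and 23 lower, and in the authors' value table it was -0.04 with 14 higher and 20 lower. The share of members that fell in AAKO was thus below that of all genes in both, 29.5% against 34.4% with quantile normalization and 25.6% against 30% in the authors' table, while it was above it with the 75th percentile, with median centring (59% against 35.7%) and with normexp background correction (55.1% against 41.8%). In CTRL the 2 higher and 17 lower became 6 and 8 with quantile normalization, 4 and 8 in the authors' table, and 0 and 35 when arrays were centred on their medians, which moved the median of all genes from -0.03 to -0.10. The members' median in CTRL was -0.03, -0.01 and -0.14 in these settings. The share that fell in CTRL was 10.3% against 22.4% of all genes with quantile normalization, 10.3% against 18.8% in the authors' table and 44.9% against 27.9% with median centring. Where a value named below turned its direction under a scaling, the value is given.

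**Figure D2:**
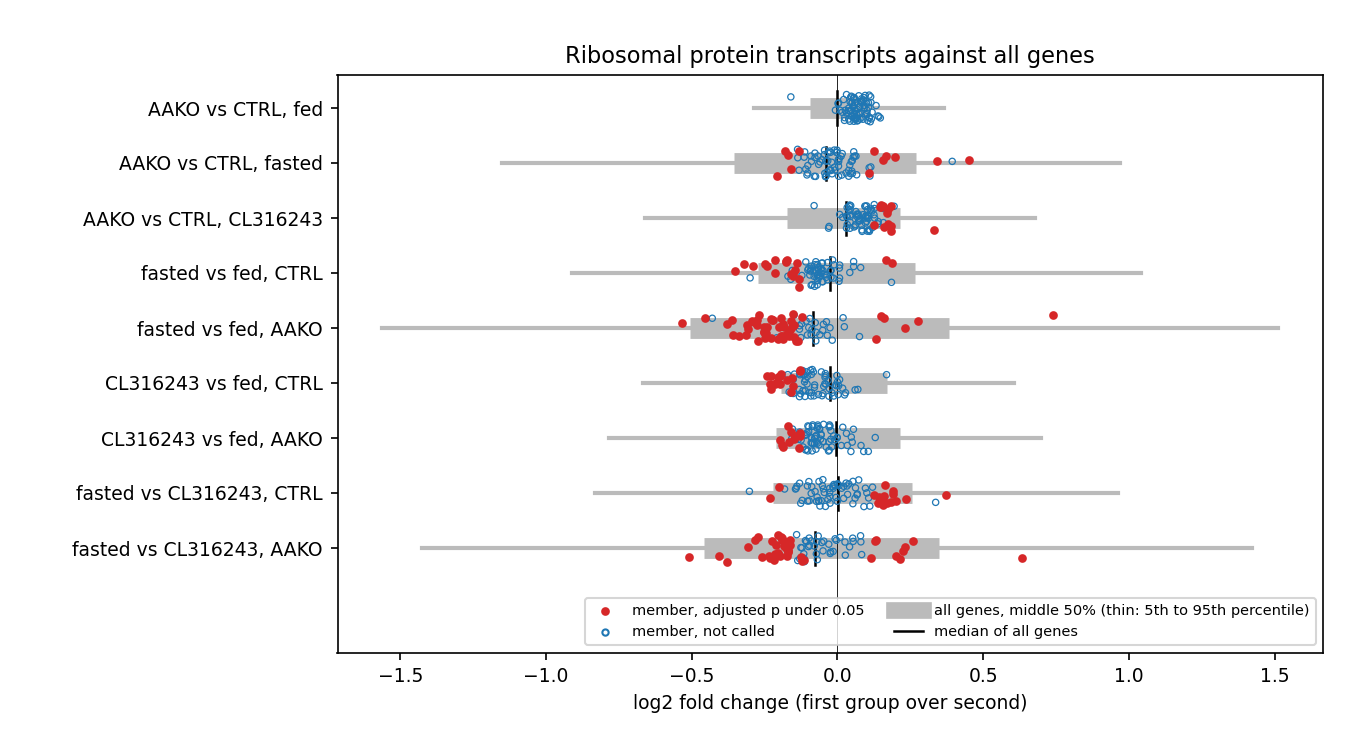
Log2 fold change of each member (points; filled where the adjusted p was under 0.05) in the 9 pairwise comparisons, over the middle 50% (thick grey) and the 5th to 95th percentile (thin grey) of all tested genes. The members lie in a narrow band, shifted left most in AAKO fasted against fed, where 46 were called lower and 6 higher.

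Rps27l, a close relative of Rps27 that is known as a p53 target, fell in both genotypes and most of all members in AAKO. Its lowest, median and highest levels were 6.66, 6.70 and 6.79 in CTRL fed and 6.25, 6.41 and 6.45 in CTRL fasted. In AAKO they were 6.61, 6.67 and 6.86 when fed and 5.94, 6.24 and 6.31 when fasted. The fasted livers lay below all fed livers of their genotype in both cases. The difference was -0.32 ± 0.06 in CTRL (SE, adjusted p = 9.82e-05) and -0.53 ± 0.06 in AAKO (9.6e-09). The second probe gave -0.34 and -0.50. Within wash batches the AAKO difference was -0.66 in batch 1 and -0.40 in batch 2.

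Rpl35a, a large-subunit protein known from Diamond-Blackfan anaemia, behaved in the same way. Its levels ran from 6.67 through 6.73 to 6.82 in CTRL fed and from 6.39 through 6.43 to 6.54 in CTRL fasted. In AAKO they ran from 6.67 through 6.80 to 6.95 when fed and from 6.20 through 6.40 to 6.51 when fasted. Again no fasted liver reached a fed one of its genotype. The difference was -0.29 ± 0.06 in CTRL (adjusted p = 0.000131) and -0.45 ± 0.06 in AAKO (4.12e-08), and -0.29 and -0.41 by the second probe.

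Rpl26, a large-subunit protein also known to bind p53 mRNA, fell by 0.38 ± 0.06 in AAKO with fasting (adjusted p = 1.47e-06). Its levels were 5.98, 6.28 and 6.33 in AAKO fed and 5.75, 5.87 and 5.94 in AAKO fasted, with no overlap. Its fall in CTRL, 0.17 ± 0.06 (0.0186), was lost with quantile normalization (-0.08) and in the authors' table (-0.08). Rpl41 (-0.36), Rpl7a (-0.36), Rpl23a (-0.31), Rpl22 (-0.31), Rpl14 (-0.32) and Rps4x (-0.34) were the other called members with differences beyond -0.3 in AAKO, of which Rpl41, Rpl7a and Rpl23a are named for their size after their values were seen. Dim probes did not show these falls for Rpl26, Rpl41 and Rps4x. Their means were -3.68, 0.95 and -4.16 in AAKO fed and -3.44, 1.24 and -4.18 in AAKO fasted.

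Rpl3, which lies near the peptidyl transferase centre, had the largest fall in CTRL. It read 6.26, 6.41 and 6.54 in CTRL fed and 5.92, 6.04 and 6.35 in CTRL fasted, where replicate 6 was the highest and the only liver to reach the fed range. The difference was -0.35 ± 0.08 (adjusted p = 0.000382), with -0.27 (0.133) in wash batch 1. In AAKO it fell by 0.28 ± 0.08 (0.00255), a call lost with quantile normalization (-0.10) and in the authors' table (-0.10). Rpl39, a small protein lining the exit tunnel, fell by 0.28 ± 0.08 in AAKO (0.00246), likewise lost with quantile normalization (-0.11) and in the authors' table (-0.13).

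A few members rose with fasting while most fell. Rps28 rose by 0.19 ± 0.05 in CTRL (adjusted p = 0.00389), a call that was lost when arrays were centred on their medians (0.12). Rps27, a zinc-finger protein of the small subunit, read 7.22, 7.35 and 7.44 in CTRL fed and 7.41, 7.50 and 7.59 in CTRL fasted, which overlap slightly. Its rise was 0.17 ± 0.06 in CTRL (0.0141), lost with median centring (0.10), and 0.16 ± 0.06 in AAKO (0.0135), lost without AAKO fed replicate 3 (0.13, adjusted p = 0.0508). Its second probe gave 0.16 and 0.17. In AAKO the groups of Rpl36, Rpl27a, Rps27, Rps4l and Rpl10a did not overlap, 5 of the 27 members without overlap, the other 22 being lower; of all genes 42.5% had no overlap there. Rpl36 is named for this after its values were seen.

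Rps4l, listed in RefSeq as a transcribed pseudogene related to Rps4x, had the largest fold. Its levels were 2.55, 2.70 and 2.95 in AAKO fed and 3.14, 3.45 and 3.77 in AAKO fasted, with no overlap. The rise was 0.74 ± 0.25 (adjusted p = 0.0112), or 1.67-fold, and the only called change above 1.5-fold in this comparison. In CTRL it spread from 2.23 to 3.45 when fed and from 2.40 to 3.60 when fasted, and its difference there was 0.19. Within wash batches the AAKO rise was 1.00 (0.0451) in batch 1 and 0.48 (0.227) in batch 2. Rps4x itself fell by 0.34 ± 0.06 in the same comparison (5.71e-06).

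**Figure D3:**
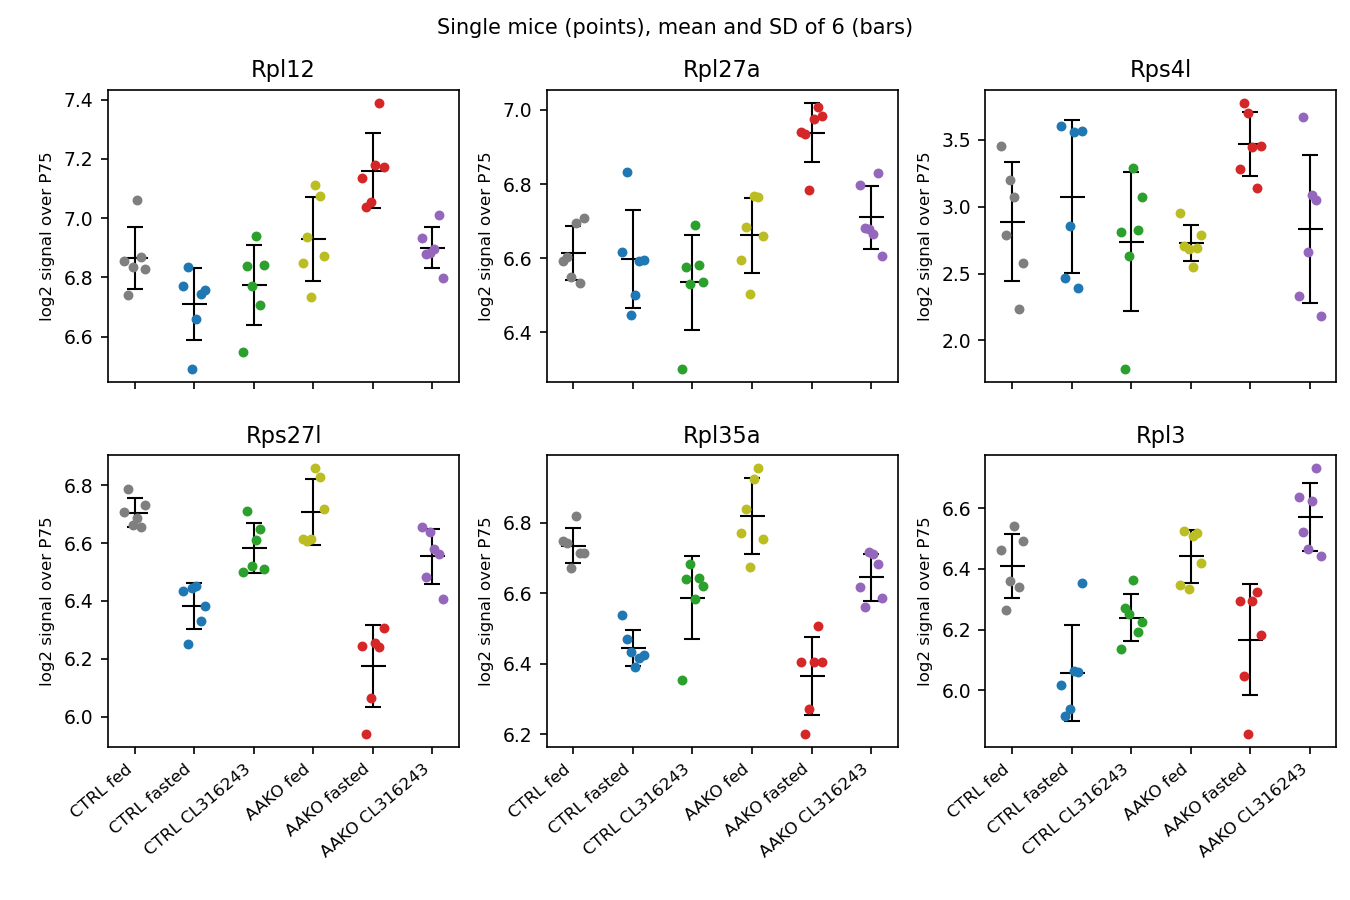
Log2 level over the array's 75th percentile of 6 members in every liver (points), with the mean and SD of 6 livers (bars), by group; each panel has its own axis, which does not start at 0. Rpl12 and Rpl27a are highest in AAKO fasted, Rps27l and Rpl35a lowest in the fasted groups, Rps4l spreads widely in most groups, and Rpl3 separates AAKO CL316243 from CTRL CL316243.

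Among fasted mice the genotypes differed in few members, and mostly within 0.2. Of 78 members 7 were higher and 5 lower in AAKO, with a median of -0.01 against -0.04 for all genes, where 49.3% of all genes were called (21.4% higher, 27.9% lower). The members' 15.4% was thus well under the background, as were the 7 members whose genotypes did not overlap (3 higher, 4 lower), where 21.3% of all genes had no overlap. Of 6 neutrophil markers 4 were higher in AAKO fasted (1.03 to 55.78 in CTRL fasted, 6.50 to 86.56 in AAKO fasted), and of 7 stellate cell markers 3 were higher (104.4 to 134.9 and 133.7 to 171.5). Likewise 3 of 7 endothelial and 2 of 9 Kupffer cell markers were higher, and 2 of 5 T and NK cell and 2 of 6 cholangiocyte markers lower. Their part was not tested. Under the other scalings the counts were 7 higher and 5 lower (normexp), 8 and 3 (median centring), 11 and 5 (quantile) and 12 and 4 (authors' table), and without AAKO fasted replicate 3 the 12 called became 13.

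Rpl12, which sits at the base of the ribosome's stalk, gave the largest difference between genotypes. Its lowest, median and highest levels were 6.49, 6.75 and 6.84 in CTRL fasted and 7.04, 7.15 and 7.39 in AAKO fasted. Every fasted AAKO liver exceeded every fasted CTRL liver. The difference was 0.45 ± 0.07 (SE, adjusted p = 6.36e-06), or 1.37-fold, and 0.51 by the second probe. It was 0.42 in wash batch 1 and 0.48 in batch 2, and kept its call without any 1 of the 12 livers. In CL316243-treated mice the genotypes differed by 0.13 for Rpl12, which was not called.

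Rpl27a, a large-subunit protein, came next among the called members; the difference of Rps4l, 0.39 ± 0.25, was not called (adjusted p = 0.203). Its levels were 6.45, 6.59 and 6.83 in CTRL fasted and 6.79, 6.96 and 7.01 in AAKO fasted. The ranges overlapped through 1 liver on each side, CTRL fasted at 6.83 and AAKO fasted at 6.79. The difference was 0.34 ± 0.07 (adjusted p = 5.91e-05), 0.36 by the second probe, and 0.36 and 0.32 within wash batches 1 and 2.

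Rpl10a differed by 0.20 ± 0.05 (adjusted p = 0.00186) and was also higher in AAKO fasted. Rpsa, the laminin receptor homologue of the small subunit, differed by 0.17 ± 0.06 (0.0258), a call lost without 1 of CTRL fasted replicates 3 or 6 or AAKO fasted replicates 4 or 5. Lower in AAKO fasted were Rps27l by -0.21 ± 0.06 (0.00686) and Rpl22 by -0.18 ± 0.05 (0.00363). Rps19, another Diamond-Blackfan gene, differed by -0.17 ± 0.05 (0.00548), but its other probes gave 0.14, -0.19 and -0.02, and the mean over probes was not called (-0.06).

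The change with fasting itself differed between genotypes in 7 members, 2 with a positive and 5 with a negative interaction (14 members without AAKO fed replicate 3, 6 without AAKO fed replicate 4 or 5, and 7 without AAKO fasted replicate 3), where 33.7% of all genes did (14.6% positive, 19.1% negative). Rpl12 differed by -0.16 from fed in CTRL, which was not called, and rose by 0.23 ± 0.07 in AAKO (adjusted p = 0.0072); the interaction was 0.39 ± 0.11 (0.00434). Rpl27a differed by -0.02 in CTRL and rose by 0.28 ± 0.07 in AAKO (0.000455); the interaction was 0.29 ± 0.09 (0.0137). Rpl14 differed by -0.01 in CTRL and fell by 0.32 ± 0.06 in AAKO (8.66e-06), with an interaction of -0.30 ± 0.08 (0.00305). Rpl22, whose paralog Rpl22l1 is described below, had an interaction of -0.24 ± 0.07 (0.00991), lost with median centring (-0.17). Rps19 had one of -0.22 ± 0.07 (0.0144), lost with the mean over its probes (-0.08). The interactions of Rpl12, Rpl27a and Rpl14 held under every scaling tried.

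After CL316243 no member was called higher than in fed mice and some were called lower, under every scaling tried. At an unadjusted p under 0.05 by limma, 1 was higher and 35 lower in CTRL, and 0 and 19 in AAKO. In CTRL 16 of 78 fell and none rose, with a median of -0.10 against -0.02 for all genes; of all genes 23.1% were called, 10.5% higher and 12.6% lower. The groups of 12 members did not overlap, against 12.2% of all genes. In AAKO 11 fell and none rose, with a median of -0.07, where 31.3% of all genes were called, 15.8% higher and 15.5% lower. There 3 members had no overlap (Rpl5, Rpl7 and Rpl8), against 15% of all genes. The share that fell was above the background for falls in CTRL (20.5%), under every scaling tried. In AAKO it was 14.1%, and ran from 10.3% against 14.8% of all genes with median centring to 25.6% against 19.3% in the authors' table. Across scalings the counts of falls ran from 13 to 22 in CTRL and from 8 to 20 in AAKO. Without CTRL CL316243 replicate 1 the CTRL count was 13, and in AAKO it was 5 without AAKO fed replicate 4 or 5, 6 without AAKO CL316243 replicate 2, 7 without replicate 6 and 19 without AAKO fed replicate 3. Of the CTRL calls 8 were shared with AAKO, which is 50% of the CTRL calls and 72.7% of the AAKO calls. After CL316243, 5 of 9 Kupffer cell markers fell in CTRL, with sums of 33.0 to 75.94 when fed and 14.04 to 48.52 after the drug, and 7 of 9 in AAKO (52.51 to 87.59 and 31.1 to 50.42). Endothelial markers fell in 6 of 7 in CTRL (32.18 to 48.1 and 16.49 to 31.28) and in 4 of 7 in AAKO (39.17 to 47.59 and 24.65 to 36.93), and stellate cell markers in 5 of 7 and 4 of 7. Of 3 tested erythroid markers 2 fell in CTRL (354.9 to 529.4 and 137.8 to 371.1) and 3 in AAKO (337.8 to 921.2 and 200.9 to 512.2). Their part was not tested. The drug's change was called different between genotypes in no member (4 had an unadjusted p under 0.05 by limma), where 10.9% of all genes were (6.33% positive, 4.56% negative).

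Rpl8, a protein of the large subunit's core, read 6.42, 6.50 and 6.58 in CTRL fed and 6.22, 6.27 and 6.31 in CTRL CL316243. In AAKO it read 6.49, 6.60 and 6.64 when fed and 6.31, 6.36 and 6.48 after the drug. The treated and fed livers did not overlap in either genotype. It fell by 0.23 ± 0.04 in CTRL (adjusted p = 0.000193) and by 0.19 ± 0.04 in AAKO (0.00116). Rpl5, which carries 5S ribosomal RNA together with Rpl11 and can bind Mdm2, likewise did not overlap and fell by 0.23 ± 0.06 (0.00399) and 0.20 ± 0.06 (0.00866). Rpl11 was called in neither comparison, with differences of -0.03 and -0.10. Rpl15 fell by 0.24 ± 0.05 in CTRL (0.00102). Rpl7 fell by 0.19 ± 0.05 in AAKO (0.00236), lost with the mean over its probes (-0.09).

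Rps6, the small-subunit protein phosphorylated by S6 kinases downstream of mTORC1, read 6.51, 6.57 and 6.63 in CTRL fed and 6.27, 6.35 and 6.39 in CTRL CL316243. No treated liver reached a fed one. It fell by 0.23 ± 0.05 in CTRL (adjusted p = 0.000583). In AAKO its difference was -0.10, which was not called, and the difference between genotypes in this change was 0.13 (0.246).

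Between genotypes under CL316243, 13 members were called, all higher in AAKO (26 higher and 0 lower at an unadjusted p under 0.05 by limma), with a median of 0.10 against 0.03 for all genes. Of all genes 24.7% were called, 13.2% higher and 11.4% lower, against 16.7% of the members. The genotypes did not overlap in 6 members, all higher in AAKO, against 11.4% of all genes. Of 8 hepatocyte markers 3 and of 7 endothelial markers 2 were higher in AAKO. Lower there were 1 of 6 cholangiocyte and 1 of 4 adipocyte markers. The part of these cells was not tested. The count of 13 depended on scaling and on single livers: it was 4 with quantile normalization and in the authors' table, 3 with median centring, 1 when only these 12 arrays were fitted, 7 without CTRL CL316243 replicate 1 and 5 without AAKO CL316243 replicate 5. Without AAKO CL316243 replicate 5 or CTRL CL316243 replicate 1, Rps18 and Rps27 lost their calls, and Rps27 also without AAKO CL316243 replicate 1 or CTRL CL316243 replicate 5. Rpl3 kept its call under every scaling. It read 6.14, 6.24 and 6.36 in CTRL CL316243 and 6.44, 6.57 and 6.73 in AAKO CL316243, with no overlap, a difference of 0.33 ± 0.08 (adjusted p = 0.00179). It was 0.31 (0.105) in wash batch 1 and 0.34 (0.0419) in batch 2. Rpl18 differed by 0.18 ± 0.04 (0.00182) and also kept its call under every scaling, but not with these 12 arrays alone (0.0578). Rpl10 differed by 0.18 ± 0.05 (0.00515), lost with quantile normalization (0.08) and in the authors' table (0.09).

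Fasting against CL316243 compares groups of 1 experiment. In CTRL 14 members were called higher in fasted livers and 2 lower, with a median of 0.00, where 36.8% of all genes were called, 19% higher and 17.9% lower. The groups of 10 members did not overlap (9 higher, 1 lower), against 17.7% of all genes. With median centring this turned to 2 higher and 15 lower, so the direction of the family as a whole was not settled. Without CTRL CL316243 replicate 1 the 16 called became 19. In AAKO 9 were called higher and 32 lower, with a median of -0.11 against -0.08 for all genes, of which 59.9% were called, 26.1% higher and 33.7% lower. There 3 members were higher and 16 lower without overlap, against 37.3% of all genes. With quantile normalization 21 were called higher and 8 lower, and in the authors' values 22 and 5. Without AAKO fasted replicate 3 the 41 called became 32. Higher in fasted than in CL316243 livers were 5 of 7 endothelial markers in each genotype (16.49 to 31.28 after the drug and 20.25 to 43.41 when fasted in CTRL, 24.65 to 36.93 and 34.48 to 44.18 in AAKO). Of 7 stellate cell markers 4 were higher and 1 lower in each genotype (49.29 to 81.37 and 104.4 to 134.9, 61.72 to 89.17 and 133.7 to 171.5). In AAKO 4 of 6 neutrophil markers were higher (2.39 to 7.90 and 6.50 to 86.56), and of 3 erythroid markers in CTRL 2 were higher and 1 lower (137.8 to 371.1 and 243.2 to 505.2). Their part in the members' differences was not tested.

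**Figure D4:**
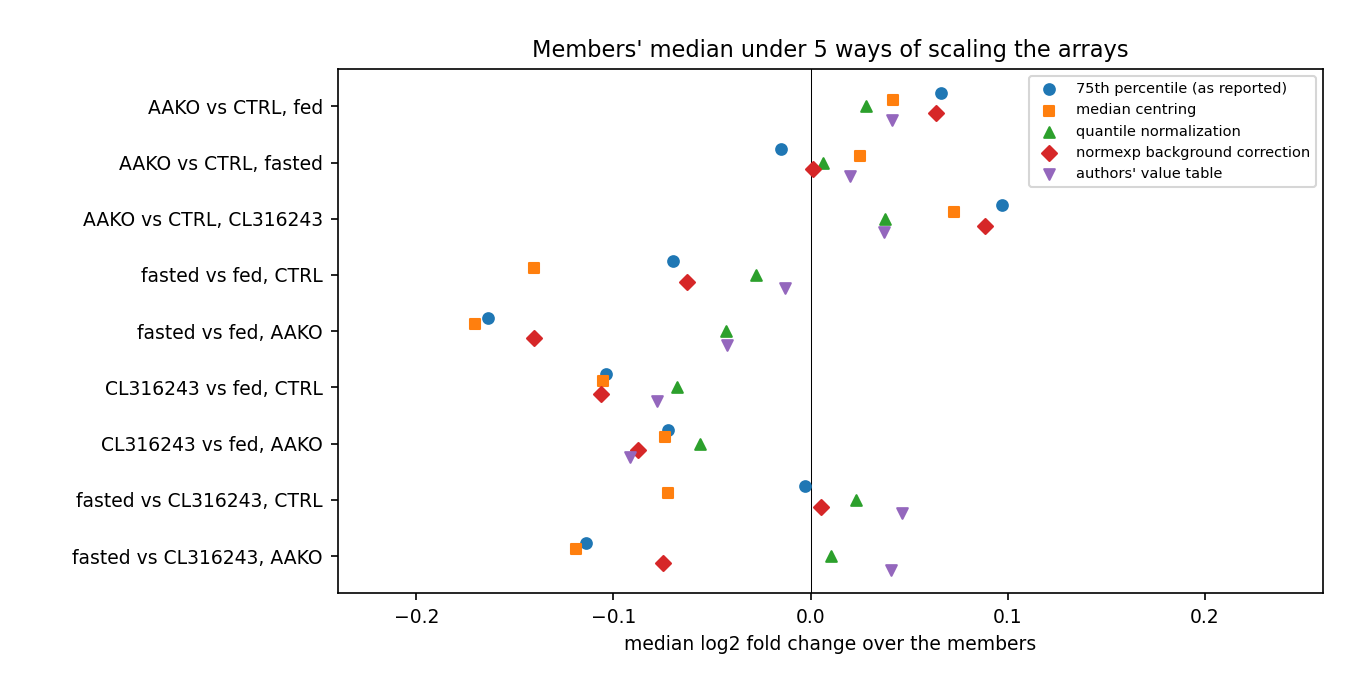
Median log2 fold change over the 78 members in the 9 pairwise comparisons under 5 ways of scaling the arrays (symbols). The medians after CL316243 against fed stay below 0 under each way, while those of fasted against CL316243 fall on both sides of 0.

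Rps27 read 6.92, 7.14 and 7.26 in CTRL CL316243, below all CTRL fasted livers given above. The difference, fasted minus CL316243, was 0.37 ± 0.06 in CTRL (adjusted p = 2.78e-06) and 0.23 ± 0.06 in AAKO (0.000776), and both held under every scaling. Rps27l was lower in fasted livers by -0.20 ± 0.06 in CTRL (0.0123) and by -0.38 ± 0.06 in AAKO (5.64e-06). Rpl3 was lower in AAKO fasted than in AAKO CL316243 by -0.41 ± 0.08 (3.95e-05), with -0.55 and -0.24 in wash batches 1 and 2. Rpl12 and Rpl27a were higher in AAKO fasted by 0.26 ± 0.07 (0.00314) and 0.23 ± 0.07 (0.00313). Rpl5 and Rpl9 were higher in CTRL fasted by 0.23 ± 0.06 (0.00151) and 0.20 ± 0.05 (0.00151), the latter lost with median centring (0.13). Rps4l was higher in AAKO fasted by 0.63 ± 0.25 (0.0312), a call lost without 1 of AAKO fasted replicates 2 or 3 or AAKO CL316243 replicates 1, 3 or 6. The genotypes differed in this change in 11 members, 10 of them negative, against 32.1% of all genes (12.8% positive, 19.3% negative); the count was 1 with median centring and 2 with quantile normalization or in the authors' table, 7 without AAKO fasted replicate 3 and 8 without CTRL CL316243 replicate 1. Rpl26 (-0.23, 0.034) lost this call without any 1 of 6 livers (AAKO CL316243 replicates 4 and 5, AAKO fasted replicates 3 and 6, CTRL CL316243 replicate 1 and CTRL fasted replicate 1). Rpl12 (0.32 ± 0.11, 0.0171) kept its call under each of these settings.

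In the stalk proteins Rplp0, Rplp1 and Rplp2, which recruit translation factors, the 6 group means spanned 0.23, 0.27 and 0.12 on the log2 scale. Rplp0 was higher in AAKO under CL316243 by 0.18 ± 0.05 (adjusted p = 0.0121), a call lost with median centring. In AAKO, fasted against CL316243, Rplp0 (-0.12, 0.0491) and Rplp2 (-0.12, 0.0442) were called lower, and both turned in the authors' table (0.03 and 0.02). The call of Rplp2 ended without any 1 of AAKO fasted replicates 1, 2, 3 or 6 or AAKO CL316243 replicates 1, 3, 4 or 5, and that of Rplp0 without AAKO fasted replicates 2, 3, 4 or 6 or AAKO CL316243 replicates 1, 2, 3, 4 or 5. Rplp1 depended on the probe. After CL316243 in CTRL the brightest gave 0.17 and the others -0.01 and -0.02, and with fasting in AAKO they gave -0.22 (0.014), -0.41 and -0.41. It was lower in AAKO fasted than in AAKO CL316243 by -0.19 ± 0.08 (0.034), lost with quantile normalization (-0.09), in the authors' table (-0.07) and without any 1 of AAKO fasted replicates 3, 4 or 6 or AAKO CL316243 replicates 1, 3 or 4. In CTRL it was lower in fasted than in CL316243 livers by -0.23 ± 0.08 (0.0174), a call lost without CTRL CL316243 replicate 5.

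Several members are in use as reference genes. Rpl32 was called in no comparison, with differences from -0.08 to 0.11. Rps18 was called higher in AAKO under CL316243 (0.15 ± 0.05, adjusted p = 0.0239) and in CTRL fasted against CL316243 (0.16 ± 0.05, 0.00818), and neither call held with median centring (0.12 and 0.09). Rps27a, made as a fusion with ubiquitin, was called in none either. Rpl4 fell by 0.28 ± 0.06 in AAKO with fasting (0.000126) and kept this call under every scaling. Rpl13a fell by 0.17 ± 0.05 (0.00447) and Rpl19 by 0.20 ± 0.05 (0.000191) there, but these calls were lost with quantile normalization and in the authors' table, where the differences of Rpl13a turned to 0.01 and 0.00. Rps29 fell by 0.16 ± 0.06 (0.0145) there, lost in the authors' table (-0.09).

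Other probes of the same genes gave a check that the choice of the brightest had not used. Of the further tested probes, 70 were bright, with a mean log2 signal above 12. With fasting in AAKO 65 of these 70 lay within 0.15 of the brightest probe, with a median distance of 0.03, and all 49 whose brightest probe was called had its sign. Of the 22 dim probes 4 lay within 0.15, with a median distance of 0.40, and 10 of the 16 whose brightest probe was called had its sign. Wide gaps were those of dim probes of Rps12 (2.86 against -0.17 for the brightest), Rps9 (2.43 against -0.02) and Rpl10a (1.44 against 0.13), chosen after their values were seen. Rpl37, whose tested probe was dim with group medians from -5.36 to -4.94, was called lower in AAKO fasted than in AAKO CL316243 (-0.51 ± 0.22, adjusted p = 0.0476), and leaving out any 1 of 7 livers (AAKO fasted replicates 3, 5 and 6, AAKO CL316243 replicates 1, 2, 3 and 5) ended this call.

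**Figure D5:**
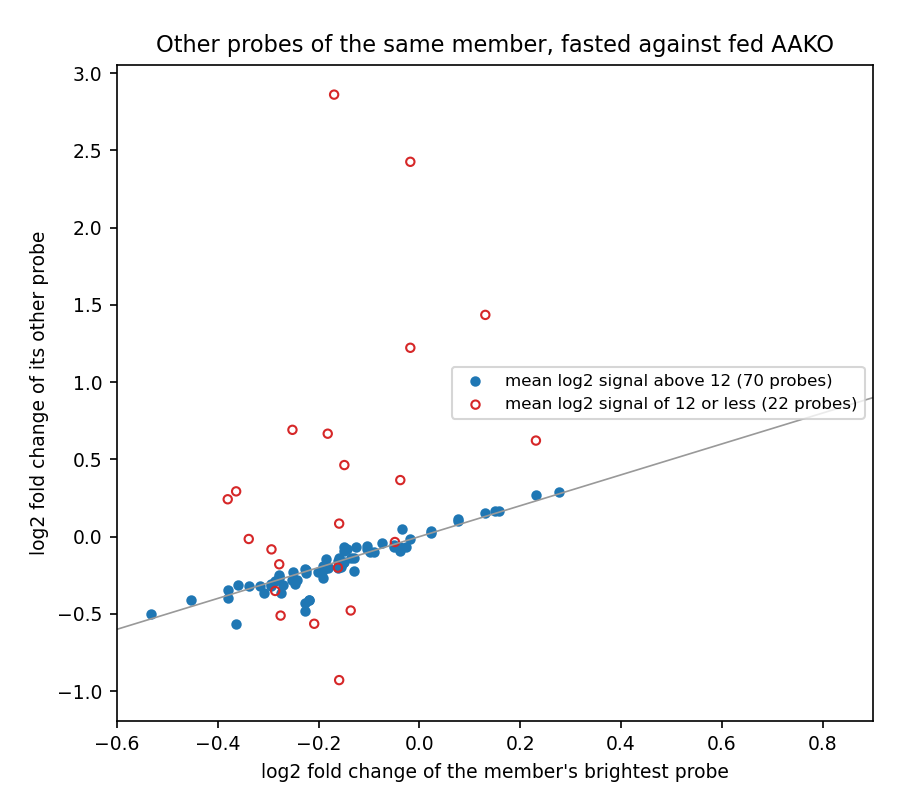
Log2 fold change in AAKO, fasted against fed, of every other tested probe of a member (vertical) against that of its brightest probe (horizontal); filled points are 70 bright and open points 22 dim probes, and the line marks equality. Bright probes follow the line, and several dim ones lie far above it.

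Other lists around the family are given with the shares of all genes called: with fasting 20.8% rose and 22.4% fell in CTRL, and 27.9% and 35.4% in AAKO. Of 64 genes of RNA polymerase I and nucleolar ribosome assembly, 22 rose and 5 fell with fasting in CTRL, and 49 rose and 4 fell in AAKO, where the median was 0.62 and from 0.60 to 0.69 under the other scalings. In CTRL the median was 0.13, from 0.06 to 0.19. Nle1, a factor of large-subunit assembly, rose by 2.13 ± 0.12 in AAKO (adjusted p = 1.56e-15), and Myc, known to drive many of these genes, by 2.70 ± 0.68 (0.000881). Among fasted mice 46 of the 64 were higher and 3 lower in AAKO, where 21.4% of all genes were higher and 27.9% lower. After CL316243, 29 rose and 2 fell in AAKO (15.8% and 15.5% of all genes), with Gnl2 at 1.17 ± 0.10 (1.52e-10), and 6 rose and 10 fell in CTRL (10.5% and 12.6%). Myc did not move with the list there. Its group mean was -1.14 in AAKO fed and -2.01 in AAKO CL316243, and -1.65 in CTRL fed and 0.21 in CTRL CL316243. The part of Myc in these differences was not tested.

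Of 22 translation factors and other messages with known tracts, 8 rose and 3 fell with fasting in CTRL, and 6 rose and 10 fell in AAKO. The medians were 0.04 and -0.08. This split turned with scaling: in AAKO it was 9 and 6 with quantile normalization and 10 and 5 in the authors' table. Eef1g, a subunit of elongation factor 1, fell by 0.68 ± 0.05 in AAKO (adjusted p = 6.91e-13) and by 0.34 ± 0.05 in CTRL (2.4e-06). Npm1, a nucleolar chaperone, rose by 0.51 ± 0.08 in AAKO (1.14e-06). Of 24 genes of mTORC1 and its control, 11 rose and 10 fell in AAKO with fasting, and 7 rose and 9 fell in CTRL. In AAKO Ddit4 and Sesn1, which restrain mTORC1, rose by 4.68 ± 0.47 (3.23e-10) and 4.50 ± 0.28 (8.95e-15). Lamtor2 and Mlst8 fell there by 1.18 ± 0.08 (1.35e-14) and 0.93 ± 0.12 (2.86e-08). The CTRL group means, fed and fasted, were 3.89 and 3.81 for Ddit4 and 1.14 and 1.91 for Sesn1. For Lamtor2 they were 4.37 and 3.78, and for Mlst8 0.60 and 0.06.

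The near relatives that the naming rule left out were 7 genes, of which 1 rose and 4 fell with fasting in AAKO. Rpl36al, a relative of Rpl36a, fell by 0.65 ± 0.07 (adjusted p = 1.31e-09). Rpl22l1 rose by 0.33 ± 0.11 in AAKO (0.00849) and fell by 0.31 ± 0.11 in CTRL (0.0211). Among fasted mice it was 0.83 ± 0.11 higher in AAKO (1.51e-07), where its paralog Rpl22 was lower. Of 74 mitochondrial ribosomal proteins, 14 rose and 52 fell with fasting in AAKO, with a median of -0.37, and 8 rose and 41 fell in CTRL, with a median of -0.18; both medians stayed below 0 under every scaling, from -0.38 to -0.27 in AAKO and from -0.25 to -0.07 in CTRL.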

How the data were processed

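Per the labels' protocols, 200 ng of TRIzol-extracted liver RNA was labelled with Cy3 for each array. The deposited scanner files hold spot intensity, with outlier flags and background calls per the file headers, from Agilent Feature Extraction 10.10.1.1; the submitters' processing notes also name limma. The deposited value table holds the authors' log2 values for 36898 probes; within each group its columns hold the same set of sorted values, and how it was normalized was not given in the sources used here.

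The processed signal was taken as log2, the array's 75th percentile was subtracted, flagged spots (0.127%) were dropped, and spots of a probe were averaged. Each gene took its brightest probe, and was tested if well above background on at least 5 of 6 arrays of at least 1 group. One limma model (R 4.3.3, limma 3.58.1) fitted 6 group means and the wash batch to all 36 arrays, with Benjamini-Hochberg adjustment over 24101 genes. The 8 slides and the 2 wash batches each hold several arrays, and every group lies in both wash batches. The number of arrays limits the precision. The script was tested on simulated data.

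Members and gene lists were chosen with earlier results of these data known. Named members were the 3 highest and 3 lowest called in each comparison, a set chosen by role and those not tested; of the other lists, the 2 highest and 2 lowest called. Alternatives were other scalings (normexp with offset 50, quantile, median centring, the authors' table), filters, models, wash batches and leaving out each array.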

Additional observations from a re-analysis of the deposited data

Results flagged for a closer look

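Among the tested named members and the mean over all tested members, in 13 of 228 sets of 6 livers of a group, 1 liver lay apart from the others, the gap to its nearest neighbour being a larger share of the group's range than Dixon's test allows, which chance meets in about 1 in 20 sets. Replicate 1 of CTRL CL316243 was the low liver in 5 of them. Its levels were 5.74 for Rpl26 (gap 0.8716 of the range, next liver 6.06), 6.52 for Rpl39 (0.8847, next 6.97), 6.35 for Rpl35a (0.6977, next 6.58), 5.62 for Rps4x (0.6889, next 5.79) and 7.49 for Rps29 (0.6591, next 7.64). In the same group replicate 4 was high for Rpl6 (0.7201, 6.21 against 6.09).

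The other livers apart were spread over groups. In CTRL fed they were replicate 4 for Rpl11 (0.6605, 7.90 against 7.80) and replicate 3 for Rpl7 (0.6566, 6.27 against 6.44). In CTRL fasted they were replicate 3 for Rpl15 (0.6594, 5.85 against 5.96) and replicate 6 for Rpl3 (0.661, 6.35 against 6.06). In AAKO fed they were replicate 3 for Rpl26 (0.6557, 5.98 against 6.21) and replicate 1 for the dim Rpl37 (0.6356, -5.80 against -5.09). In AAKO fasted it was replicate 3 for Rpl27a (0.6726, 6.79 against 6.94).

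The change with fasting differed between genotypes, by limma's interaction term after Benjamini-Hochberg adjustment, in 7 members. The differences were 0.3865 for Rpl12, 0.2928 for Rpl27a, -0.301 for Rpl14, -0.2376 for Rpl22, -0.2242 for Rps19, -0.2162 for Rpl7 and -0.1913 for Rps10. The difference between fasted and CL316243 livers depended on genotype in 11 members. It did so by 0.3244 for Rpl12, -0.2465 for Rpl14, -0.2382 for Rpl6, -0.2318 for Rpl26, -0.2286 for Rpl18, -0.2272 for Rps19, -0.2263 for Rpl7, -0.2126 for Rpl28, -0.2104 for Rpl22, -0.2069 for Rpl24 and -0.1989 for Rpl7a. The call of Rpl26 was lost on leaving out any 1 of 6 livers. Rps10, Rpl28, Rpl24 and Rpl7a are named for passing these tests. Both sets share the fasted livers and are not independent of each other.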

How the results depend on the processing

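The cause of each change below was not tested. With quantile normalization the members' median in AAKO, fasted against fed, was -0.043 in place of -0.1635, in AAKO, fasted against CL316243, 0.0102 in place of -0.1139, and in the interactions of genotype with fasting -0.0175 in place of -0.0965 and with fasted against CL316243 -0.0171 in place of -0.1092. It called 4 members in place of 13 between genotypes under CL316243, 1 in place of 0 in the interaction with CL316243 and 2 in place of 11 in that with fasted against CL316243. It turned Rpl13a (0.0062) and Rpl5 (0.0289) in AAKO, fasted against fed, and Rplp0 (0.0185) and Rpl19 (0.0237) in AAKO, fasted against CL316243. Median centring called 3 between genotypes under CL316243, 35 in place of 19 in CTRL, fasted against fed (median -0.1403 in place of -0.0697), 3 in place of 7 in the interaction with fasting (median -0.0326) and 1 in that with fasted against CL316243 (-0.0449). It moved the median of CTRL, fasted against CL316243, to -0.0723 from -0.003. The authors' table called 4 between genotypes under CL316243, 12 in CTRL and 34 in place of 52 in AAKO for fasted against fed (AAKO median -0.0425), 20 in place of 11 in AAKO for CL316243 against fed, 27 in place of 41 in AAKO for fasted against CL316243 (median 0.0407), and 2 in the interaction with fasted against CL316243 (median -0.0078); the interaction with fasting had a median of -0.0159. It turned Rpl13a (0.0019) and Rpl5 (0.0313) in AAKO, fasted against fed, and Rplp2 (0.0208), Rplp0 (0.0319), Rpl13a (0.0352), Rpl19 (0.053) and Rps4x (0.0131) in AAKO, fasted against CL316243. Normexp called 18 in AAKO for CL316243 against fed.

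Without the filter on dim probes, 7 members were called between genotypes under CL316243, 6 in AAKO for CL316243 against fed and 6 in the interaction with fasted against CL316243. With only the groups compared in the fit the counts were 1 between genotypes under CL316243, 11 in CTRL for fasted against fed, 3 in AAKO for CL316243 against fed, 8 in CTRL for fasted against CL316243 and 1 in the interaction with CL316243. Wash batch 1 alone, with fewer arrays, called 3 and 0 between genotypes when fasted and under CL316243, 3 and 34 in CTRL and AAKO for fasted against fed, 1 and 1 for CL316243 against fed, 1 and 23 for fasted against CL316243, and 1 and 0 in the interactions with fasting and with fasted against CL316243. Wash batch 2 alone called 4, 1, 4, 19, 0, 0, 7, 9, 1 and 0 in the same order, and the median of the interaction with CL316243 was 0.0964 in place of 0.0274. The mean over all probes turned Rps19 in AAKO, fasted against fed (0.0219 in place of -0.1819).

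Leaving out 1 array at a time gave 0 to 0 called members between genotypes when fed, 8 to 13 when fasted and 5 to 17 under CL316243. It gave 13 to 18 in CTRL and 45 to 58 in AAKO for fasted against fed, 11 to 19 and 5 to 19 for CL316243 against fed, and 14 to 19 and 32 to 45 for fasted against CL316243. The interactions gave 6 to 14 with fasting, 0 to 0 with CL316243 and 7 to 14 with fasted against CL316243. The medians ran, in the same order, from 0.0474 to 0.0944, -0.0262 to -0.0023 and 0.0688 to 0.1158; from -0.0844 to -0.054, -0.2004 to -0.1475, -0.1144 to -0.0657, -0.1039 to -0.0496, -0.0363 to 0.012 and -0.1305 to -0.09; and from -0.1251 to -0.0738, 0.005 to 0.0487 and -0.133 to -0.076. Counts moved by over 1.5 times without AAKO CL316243 replicate 5 (5) or CTRL CL316243 replicate 1 (7) between genotypes under CL316243; without AAKO CL316243 replicates 2 (6) or 6 (7) or AAKO fed replicates 3 (19), 4 (5) or 5 (5) in AAKO for CL316243 against fed; without AAKO fed replicate 3 (14) in the interaction with fasting; and without AAKO fasted replicate 3 (7) in that with fasted against CL316243.

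With the replicate number as a block, 55 members were called in AAKO and 19 in CTRL for fasted against fed, and no count moved by over 1.5 times. Over 90 pairs of livers of the same number the correlation of deviations ran from -0.3044 to 0.3614 with a median of 0.0023. For 450 pairs of other numbers it ran from -0.3174 to 0.2925 with a median of -0.0065. Whether a number stands for a pairing is not given by the labels, and these values cannot settle it. Leaving out Rpl37, Rps4l and Rps27l, chosen after seeing the data, changed no median's direction. For the differences of single named members, all settings other than leaving out 1 array at a time were counted together. Of their values 1050 kept the direction and side of the threshold, 245 lost the call, 9 gained it and the 12 above turned. These settings include single wash batches and fits of only the groups compared, which hold fewer arrays. No member's brightest probe was saturated, but the family's medians and counts depended on the scaling, as given above. Rpl37 and the 3 untested members are limited by signal near background.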

Other observations

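Between genotypes, the ribosomal proteins of mitochondria gave other counts than the cytosolic ones among fasted mice, but similar counts under CL316243. Among fasted mice 11 of 74 were higher and 46 lower in AAKO, with a median log2 difference of -0.22 (21.4% and 27.9% of all genes), where the cytosolic members had 7 higher and 5 lower and a median of -0.01. Under CL316243, 14 of the mitochondrial ones were higher and 1 lower, with a median of 0.06 (13.2% and 11.4% of all genes). The cytosolic members had 13 higher and 0 lower there, with a median of 0.10, and that count depended on scaling, as given above. Against fed, CL316243 was accompanied by 18 falls and 0 rises in CTRL by limma (median -0.12; 29 and 0 at an unadjusted p under 0.05; 12.6% and 10.5% of all genes) and by 12 falls and 11 rises in AAKO (median 0.02; 15.5% and 15.8% of all genes), and no test compared the families. In CTRL no mitochondrial member rose with the drug under any scaling tried, while in AAKO the median was -0.03 in the authors' table.

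Most dim probes gave other values than the brightest probe of their gene, as given above. In AAKO, fasted against fed, a second dim probe of Rps9 gave 1.22 and a dim probe of Rps19 gave 0.67, where the brightest probes gave -0.02 and -0.18. These probes were chosen after their values were seen, and what they hybridise to was not tested.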
